A study of Mus musculus with 4 samples.

Results

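The genes that drive and restrain passage from G1 into S phase were described by transcript level and isoform in the mouse fibroblast line NIH/3T3. The 10 genes are the D-type cyclins *Ccnd1*, *Ccnd2* and *Ccnd3*, the E-type cyclins *Ccne1* and *Ccne2*, the kinases *Cdk2*, *Cdk4* and *Cdk6*, and the inhibitors *Cdkn1a* and *Cdkn1b*. They were taken by gene symbol and account for 24 of 34200 transcripts and 10 of 21945 genes in the transcript table. The GENCODE M21 annotation lists 74 transcripts for these genes. Levels and shares below cover only those with a row, and why the others have none was not determined. Cells had been transfected with siRNAs against *Setd2*, the methyltransferase that trimethylates histone H3 at lysine 36 (KD, 2 samples), or with a Scrambled siRNA that targets no gene (WT, 2 samples). All 4 samples received siRNA at 10 nM by lipofection and were lysed after 48 h, so the WT cells had also been transfected. KD cells received a pair of *Setd2* siRNAs together, and the labels number the samples 1 and 2 in each group. Transfections are called independent in the design text, but all were made in the same cell line.

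D-type cyclins bind and activate CDK4 and CDK6, and the resulting complexes begin the phosphorylation of the retinoblastoma protein. E-type cyclins act later in G1 with CDK2, which continues that phosphorylation and helps to fire replication origins. The proteins encoded by *Cdkn1a* (p21) and *Cdkn1b* (p27) belong to the CIP/KIP family. They bind cyclin-CDK complexes and block CDK2, whereas the INK4 family acts on CDK4 and CDK6 alone. In fibroblasts, D-type cyclins respond to growth factors, p21 is a target of p53, and p27 is known from cells that have stopped dividing.

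Polyadenylated RNA was measured, and the values used are the mean and the variance of each transcript over all 4 libraries. KD and WT were therefore not compared, and an SD below holds both any difference between the groups and the variation between libraries, whose parts were not separated here. The 4 libraries were not analysed singly here, and their depth is unknown. Means were taken on a log scale, so a mean in counts below is a geometric mean, and gene levels sum such means. *Setd2*, the targeted gene, was represented by 1 transcript with a mean of 1844 normalised estimated counts and an SD of 1.15 on the log2 scale, the widest of 684 transcripts of like level. This spread does not show which libraries were low and does not check the labels. All 10 fibroblast markers had a row, from *Pdgfrb* at 570 to *S100a4* at 458932 normalised estimated counts per 1000 bases. Of 14 markers of epithelial, blood, endothelial and muscle cells, 8 had a row, and these lay between 1.20 for *Kdr* and 287 for *Cd68* on the same scale. The epithelial genes *Epcam*, *Krt5* and *Krt18*, the T cell gene *Cd3e* and the muscle regulators *Myod1* and *Myog* had none.

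To compare genes, the level of each transcript was divided by its spliced length and summed over the transcripts of a gene, and all levels below are normalised estimated counts per 1000 bases unless counts are named. In bulk RNA a lower level can stem from fewer cells that express a gene or from less RNA per cell, which cannot be told apart. *Cdk4* had the highest level at 16577, followed by *Cdkn1a* at 7633, *Ccnd1* at 4846, *Ccnd2* at 4351 and *Cdkn1b* at 3100.3. The lower part of the order held *Ccnd3* at 1999, *Cdk2* at 1275, *Ccne2* at 1120.4, *Ccne1* at 1000.2 and *Cdk6* at 255. Of 9 pairs of neighbours in this order, 5 differed by more than their combined SD over the 4 libraries. *Cdkn1a* and *Ccnd1*, *Ccnd1* and *Ccnd2*, *Cdk2* and *Ccne2*, and *Ccne2* and *Ccne1* lay within it. SDs were combined as if the genes of a pair varied independently. Both were measured in the same libraries, and the values used do not give how they vary together. The median over the 10 genes was 2550, against 120 over 21607 genes with a known length. Except for *Cdk6*, which stood at the 58.3rd percentile of genes, all lay above the 75th percentile, up to the 98.6th for *Cdk4*.

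**Figure D1:**
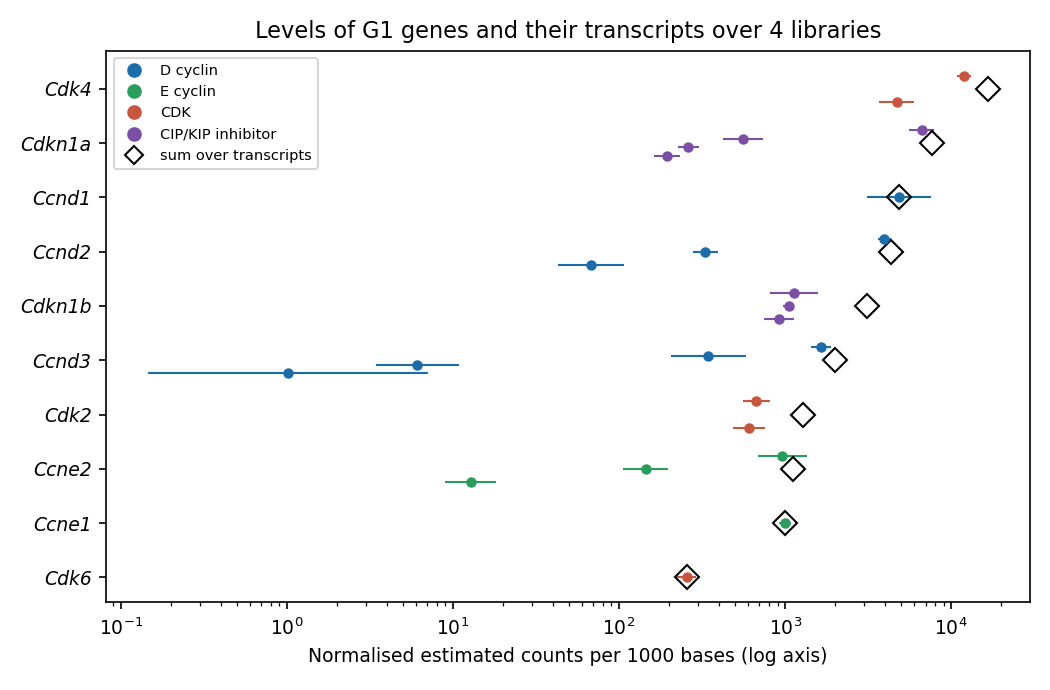
Level of each transcript in normalised estimated counts per 1000 bases (log axis), as points with bars of 1 SD over the 4 libraries. Open diamonds give the sum over the transcripts of a gene, without a bar, and colours give the role of the gene. *Cdk4* sums to 16577 and *Cdk6* to 255. Ccnd3-215 carries the widest bar, at an SD of 2.80 on the log2 scale.

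Among the D-type cyclins, *Ccnd1* made up 43.3% of the summed level, *Ccnd2* 38.9% and *Ccnd3* 17.9%. The mean of *Ccnd1* was 18123 counts with an SD of 0.63 on the log2 scale, which spans 11675 to 28131 counts. *Ccnd2* reached 25024 counts in its leading transcript with an SD of 0.13, or 22873 to 27377 counts. *Ccnd1* thus had the wider spread over these libraries, and both were among the most abundant transcripts of the table. *Ccnd1* spread more than 97.2% of transcripts of like level, and *Ccnd2* more than 26.5%. *Ccnd3* had an SD of 0.29 at the level of the gene. Its leading transcript, with 3257 counts and an SD of 0.19, was near the middle of its class.

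*Ccnd1* was represented by a single transcript of 295 codons, on the minus strand (chr7:144929931-144939869). *Ccnd2* had 3 transcripts on the minus strand (chr6:127125162-127151060 for the longest). Ccnd2-201, with 289 codons and 5 exons, made up 90.9% of the gene. Ccnd2-204 and Ccnd2-202 contributed 7.59% and 1.55%, and both encode 156 codons. In Ccnd2-204 exon 2 is not spliced to exon 3 but runs 364 bases into intron 2 (chr6:127148300-127148663), and the transcript ends 23138 bases before the end of Ccnd2-201. The sequences below, from GENCODE M21 on GRCm38, show the point at which the short form leaves the full-length one. They are given in the sense of the gene (minus strand), with the bases after the last shared base of exon 2, at position 127148664, in capitals.
Ccnd2-201: ccccaggagctgctgGAGTGGGAACTGGTA
Ccnd2-204: ccccaggagctgctgGTAATGCCGCCCTCC
None of the 31-base words of Ccnd2-204 was found in this transcript alone. Its mean of 332 counts therefore rested on how reads were divided among transcripts, and the deposited uncertainty of that division came to 34.7% of its variance over libraries.

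*Ccnd3*, on the plus strand, had 4 transcripts. Ccnd3-205 (chr17:47593470-47599689) made up 82.4% and shares its 292 codons with Ccnd3-202 and Ccnd3-215, which added 0.30% and 0.051%. Ccnd3-208, which starts 2598 bases downstream and encodes 96 codons, made up 17.2%. This short form had 321 counts and an SD of 0.75, from 191 to 540 counts, wider than 95.8% of its class. The SD of the full-length form was smaller, at 0.19. Ccnd3-215 was the only member transcript with fewer than 10 counts, at 2.10, and the variance from read assignment of Ccnd3-202 was 791% of its variance over libraries. Neither level was precise enough to rank these forms.

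**Figure D2:**
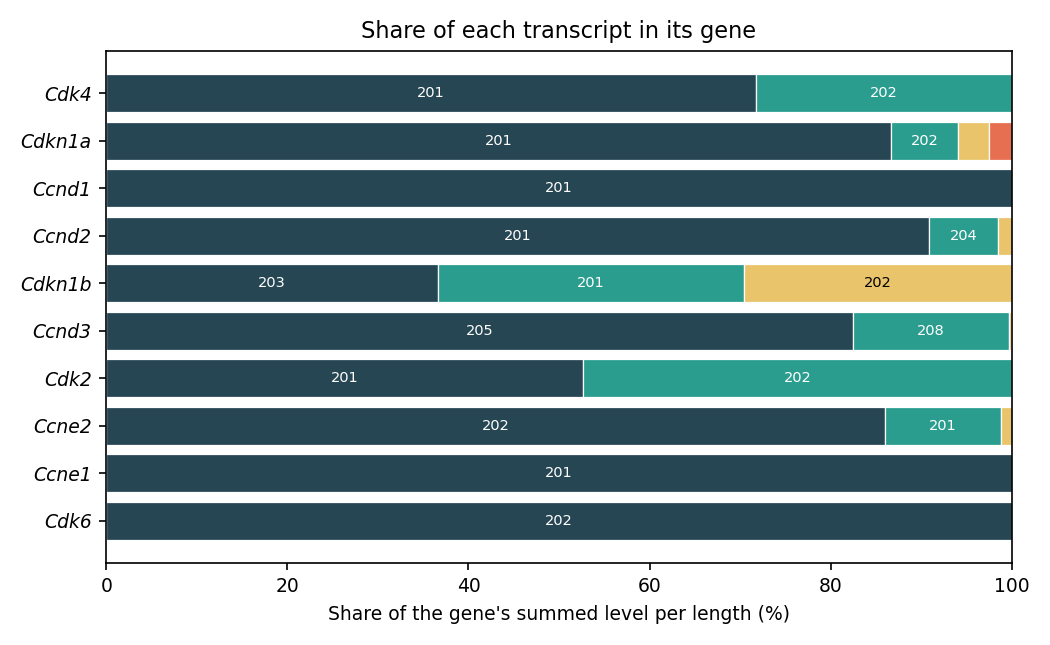
Share of each transcript in the level of its gene, in percent, for the 10 genes, with 1 segment for each transcript. *Cdk2* and *Cdkn1b* are divided among transcripts of like share, while *Ccnd2*, *Ccne2* and *Cdkn1a* rest mainly on 1 transcript.

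The E-type cyclins were less abundant than the D-type cyclins, which summed to 5.28 times their level. *Ccne2* made up 52.8% and *Ccne1* 47.2% of the E-type sum, a difference within their spread. *Ccne1* had a single transcript of 408 codons on the minus strand (chr7:38097984-38107534), with 2000.4 counts and an SD of 0.12 (1844 to 2170.1 counts). For *Ccne2*, on the plus strand (chr4:11191730-11204682), the leading transcript had 2801 counts and an SD of 0.49 (1994 to 3933 counts). It spread more than 96.5% of transcripts of like level, compared with 28.8% for *Ccne1*. Like the first pair of D-type cyclins, the E-type cyclins thus had similar levels and unequal spread.

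Ccne2-202 made up 86.0% of *Ccne2*, Ccne2-201 12.9% and Ccne2-207 1.14%. Ccne2-201 encodes 403 codons and the others 404, because exon 3 starts 3 bases later in Ccne2-201 (chr4:11192815-11192817 is left out). The sequences across this junction are shown because it is here that the coding sequences part. Capitals mark the bases of exon 3 after the junction with exon 2, which ends at position 11192717.
Ccne2-202: gtcaagacgcagTAGCCGTTTACAAGCTAA
Ccne2-201: gtcaagacgcagCCGTTTACAAGCTAAGCA
Ccne2-202 had no 31-base word of its own and Ccne2-201 4.20%. The variance from read assignment of Ccne2-207, with 38.4 counts, was 105% of its variance over libraries.

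The kinases differed most in level. *Cdk4* exceeded *Cdk6*, which encodes the kinase that shares its cyclin partners, 65.1-fold and made up 98.5% of the pair. It exceeded *Cdk2* 13.0-fold. In counts the gap to *Cdk6* was smaller, since its single transcript (chr5:3343893-3531008, plus strand) is 11525 bases long, with a 3′UTR of 10217 bases, and collected 2935 counts (SD 0.19). This 3′UTR was longer than that of 99.8% of leading coding transcripts. *Cdk4* and *Cdk6* together stood at 1.50 times the level of the D-type cyclins, and the E-type cyclins at 1.66 times that of *Cdk2*. Ratios of mRNA do not give ratios of protein, which was not measured for these genes.

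Both *Cdk2* transcripts, on the minus strand (chr10:128697939-128705003 for Cdk2-201), were well represented. Cdk2-201, with 298 codons, made up 52.6%, and Cdk2-202, with 346 codons, 47.4%. Their means were 1503 and 1452 counts with SDs of 0.27 and 0.32, and the SD ranges of 1245 to 1814 and 1162 to 1815 counts overlapped almost wholly. The difference lies in exon 6 of Cdk2-202, 144 bases or 48 codons at chr10:128699976-128700119, which keeps the reading frame. Its junctions are shown beside the one that leaves it out, with the bases after each junction in capitals and in the sense of the gene. The first line joins position 128701343 to 128699675, the second 128701343 to 128700119 and the third 128699976 to 128699675.
Cdk2-201, exon left out: atctttgctgaaatgGTGACCCGCAGGGCC
Cdk2-202, into the exon: atctttgctgaaatgCACCTAGTGTGTACC
Cdk2-202, out of the exon: tctgccccacaccccGTGACCCGCAGGGCC
Words found in 1 transcript alone made up 7.32% of Cdk2-202 and 0.23% of Cdk2-201. The variance from read assignment was 5.63% and 6.93% of that over libraries.

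*Cdk4*, on the plus strand (chr10:127063534-127067920), also had 2 transcripts. Cdk4-201, with 24421 counts and an SD of 0.14, encodes 303 codons and made up 71.8%. Cdk4-202, with 3343 counts and an SD of 0.36 (2609 to 4283 counts), made up 28.2% and encodes 158 codons. The shorter form lacks the last 90 bases of exon 3 (chr10:127064631-127064720), exon 4 (168 bases, chr10:127064835-127065002) and the first 94 bases of exon 5 (chr10:127065155-127065248). These 352 bases are not a whole number of codons. Cdk4-202 also ends 918 bases before Cdk4-201. The junctions that tell the forms apart are shown on the plus strand, from position 127064720 to 127064835 in Cdk4-201 and from 127064630 to 127065249 in Cdk4-202, with the bases after the junction in capitals.
Cdk4-201: gttgagaccattaagGATCTAATGCGTCAG
Cdk4-202: gatcgggacatcaagAGATGTTCCGTCGGA
The shorter form spread more than 89.3% of its class and the longer one more than 30.3%. Because Cdk4-202 is only 714 bases long, the share of Cdk4-201 was higher, at 88.0%, when counts were not divided by length.

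**Figure D3:**
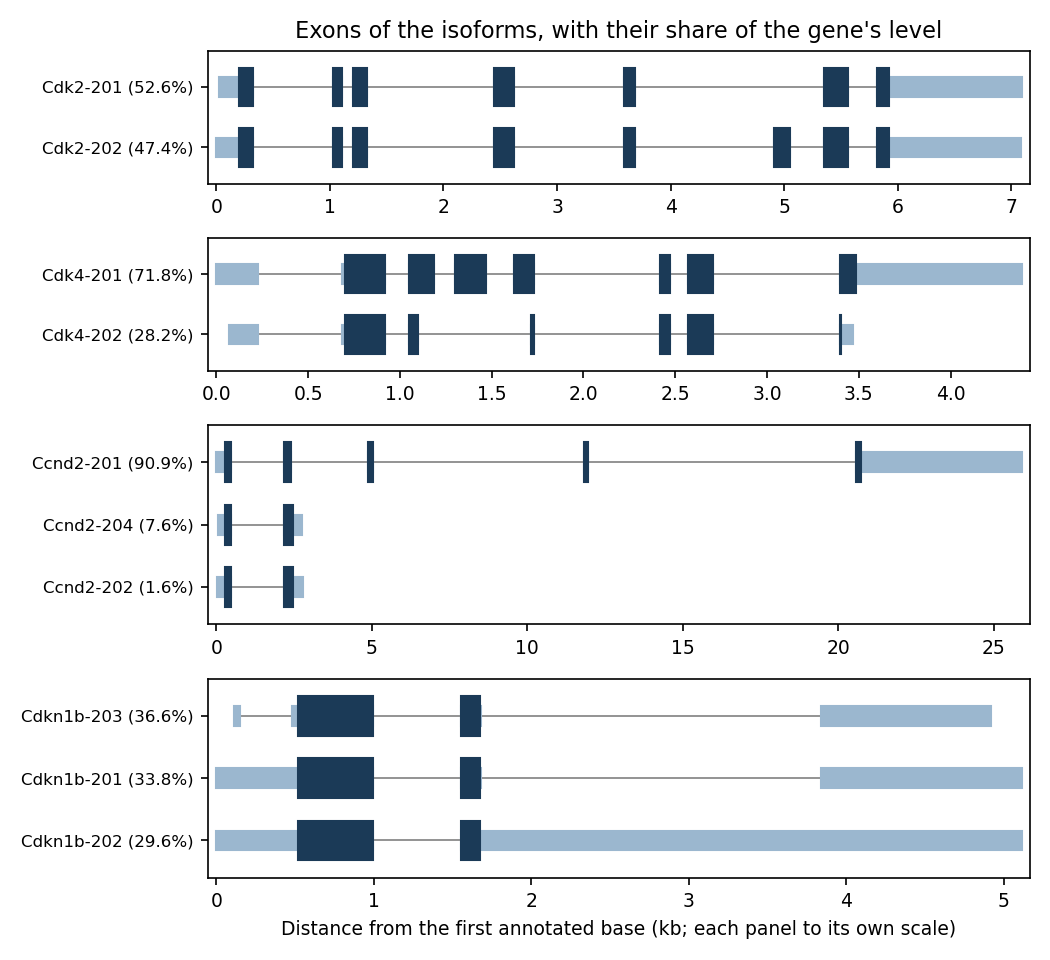
Exons of the transcripts of *Cdk2*, *Cdk4*, *Ccnd2* and *Cdkn1b* by distance (kb) in the direction of transcription, each gene to its own scale, with tall dark boxes for coding bases, low pale boxes for untranslated bases, lines for introns and the share of each transcript beside its name. Cdk2-202 holds an additional exon, Cdk4-202 lacks exon 4 and parts of exons 3 and 5, the short *Ccnd2* forms end early, and Cdkn1b-202 keeps its last intron.

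The inhibitors were the second and the fifth most abundant genes of the set. *Cdkn1a* exceeded *Cdkn1b* 2.46-fold, and the pair summed to 8.42 times the level of *Cdk2*. Their sum of 10733.5 was below the level of *Cdk4*, at 16577. These too are levels of mRNA and do not give the ratio of inhibitor to kinase protein. *Cdkn1a*, on the plus strand (chr17:29093769-29100722 for Cdkn1a-201), had 4 transcripts that encode the same 159 codons and differ in untranslated sequence. Cdkn1a-201 made up 86.7%, with 12659.8 counts and an SD of 0.25 (10659.8 to 15035 counts). Cdkn1a-202 starts 2790 bases upstream and made up 7.33%, Cdkn1a-203 3.42% and Cdkn1a-205 2.55%. The SDs of these 3 ranged from 0.21 to 0.40, and lay between the 32.6th and the 79.4th percentile of their classes.

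*Cdkn1b*, on the plus strand (chr6:134920401-134925513), was divided among 3 transcripts that share 1 coding sequence of 197 codons. Cdkn1b-203 made up 36.6%, Cdkn1b-201 33.8% and Cdkn1b-202 29.6%. Cdkn1b-202 keeps an intron of 2159 bases after the stop codon (chr6:134922084-134924242), which gives it a 3′UTR of 3439 bases. It had the most counts, 4174, against 2507 for Cdkn1b-201 and 1996 for Cdkn1b-203. The leading transcript of this gene thus depended on whether counts were divided by length. Cdkn1b-203 had an SD of 0.48, wider than 94.9% of its class, whereas Cdkn1b-201 had an SD of 0.11 and Cdkn1b-202 of 0.30. Cdkn1b-201 had no 31-base word of its own, and the variance from read assignment was 24.4% of that over libraries, compared with 26.3% for Cdkn1b-203.

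The spread of the 24 transcripts was set beside that of 684 transcripts of like mean for each. SDs were above the median of the class for 18 transcripts and below it for 6, with a median percentile of 75.6. By construction, about 50% of all transcripts lie above the median of their class and about 10% over its 90th percentile. Several of the 24 are isoforms of the same gene in the same libraries, so their SDs are not independent. Over the 90th percentile lay Ccnd1-201, Ccne2-202, Ccnd3-208 and Cdkn1b-203. Each comes from a different gene, and only Ccnd1-201 and Ccne2-202 carry most of theirs. Ccne1-201, Ccnd2-201, Cdk4-201 and Cdkn1b-201 lay between the 26.5th and the 30.4th percentile. The variance from read assignment was under 10% of the variance over libraries for 15 transcripts and over 50% for 2, Ccnd3-202 and Ccne2-207. For Ccnd1-201 it was 0.033% and for Ccne2-202 0.50%, so that nearly all of the variance of these transcripts remained after that of read assignment was taken off. Whether it lay between the groups or within them was not tested. The part of read assignment in the variance was not counted over all transcripts, so the counts of 15 and 2 have no comparison here.

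**Figure D4:**
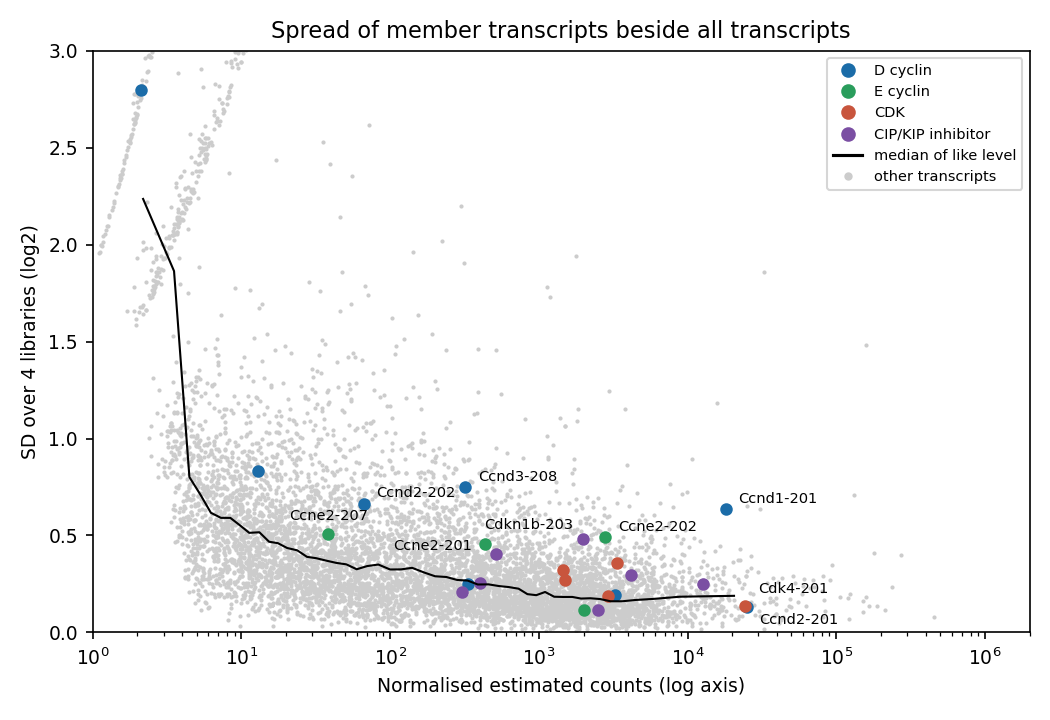
SD over the 4 libraries (log2) against the mean in normalised estimated counts (log axis) for the 24 transcripts, coloured by role. Grey points are 8000 transcripts drawn at random from all, members included, and a line gives the medians of the classes of like level. The vertical axis ends at 3, above which some grey points lie. Ccnd1-201 stands above the line at 0.63, and Ccnd2-201 and Cdk4-201 lie below it.

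Some reads of these genes can also be assigned to other genes. Words were compared by sequence, so strand here means the orientation of the match and not a position in the genome. Of the 31-base words of Ccnd1-201, 28.1% also occur in transcripts of *LTO1* on the opposite strand. The share was 30.2% for Cdk4-201 with *Tspan31*, 19.2% for Ccne2-202 with *Ints8* and 16.9% for Ccnd3-205 with *Bysl*, all on the opposite strand. Ccnd3-205 also shared 15.1% with the pseudogene *Ccnd3-ps* in the same orientation, and where that pseudogene lies was not examined. The libraries were made with a stranded kit, but whether the quantification used the strand is not given in the sources used here. The part of shared reads in the levels of *Ccnd1*, *Cdk4*, *Ccne2* and *Ccnd3* was not tested. Cdk2-201, Cdk2-202 and Ccne1-201 shared no word with another gene.

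Transcripts of the set also differed in build. The 3′UTR of the leading transcript was longest in *Cdk6*, then 5173 bases in *Ccnd2* (96.8th percentile of 14541 leading coding transcripts) and 2676 bases in *Ccnd1* (84.1st percentile). It was shortest in *Ccne1*, at 531 bases. The median was 1248 bases, against 927 over all leading coding transcripts. GC content ranged from 35.1% in *Ccne2*, under the first percentile, to 59.7% in *Ccnd3*, at the 94.8th. *Ccne1*, at 52.7%, and *Ccnd1* and *Ccnd2*, at 50.9% and 47.1%, lay nearer to the median over all leading coding transcripts.

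Other genes of the G1 pathway were taken from lists. Of 5 further CDK inhibitors, *Cdkn2c* stood at 3503 and *Cdkn2d* at 216, and *Cdkn1c*, *Cdkn2a* and *Cdkn2b* have no row in the table used. Both genes with a row encode INK4 inhibitors, and *Cdkn2c* stood near *Cdkn1b* and below *Cdkn1a* in level. SDs were 0.21 for *Cdkn2c* and 0.30 for *Cdkn1b* on the log2 scale, and whether these levels differ was not tested. The *Cdkn2a* locus is known to be deleted in NIH/3T3 cells, but why *Cdkn1c*, *Cdkn2a* and *Cdkn2b* have no row was not tested. Of 13 genes of the retinoblastoma and E2F families, 12 had a row and *E2f6* had none. They ranged from *E2f2* at 117 to *Tfdp1*, which encodes the partner of E2F proteins, at 5844, with a median of 426. For CDK activation, 7 of 8 genes had a row, without *Cdc25c*. The highest was *Cdk7*, the CDK-activating kinase, at 2030.5 and the lowest *Wee1*, a kinase that inhibits CDKs, at 342, with a median of 1116.

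All 11 genes for the turnover of G1 regulators had a row, from *Fbxo31* at 195 to *Skp1a*, a core subunit of SCF ubiquitin ligases, at 10519.7, with a median of 640. *Ccna1* had none among 5 cyclins and CDKs of later phases. The others lay between *Ccnb2* at 408 and *Cdk1*, the mitotic kinase, at 4945, with a median of 2291. Thus *Cdk4* stood above every gene of these lists, and *Cdk6* below the median of each.

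**Figure D5:**
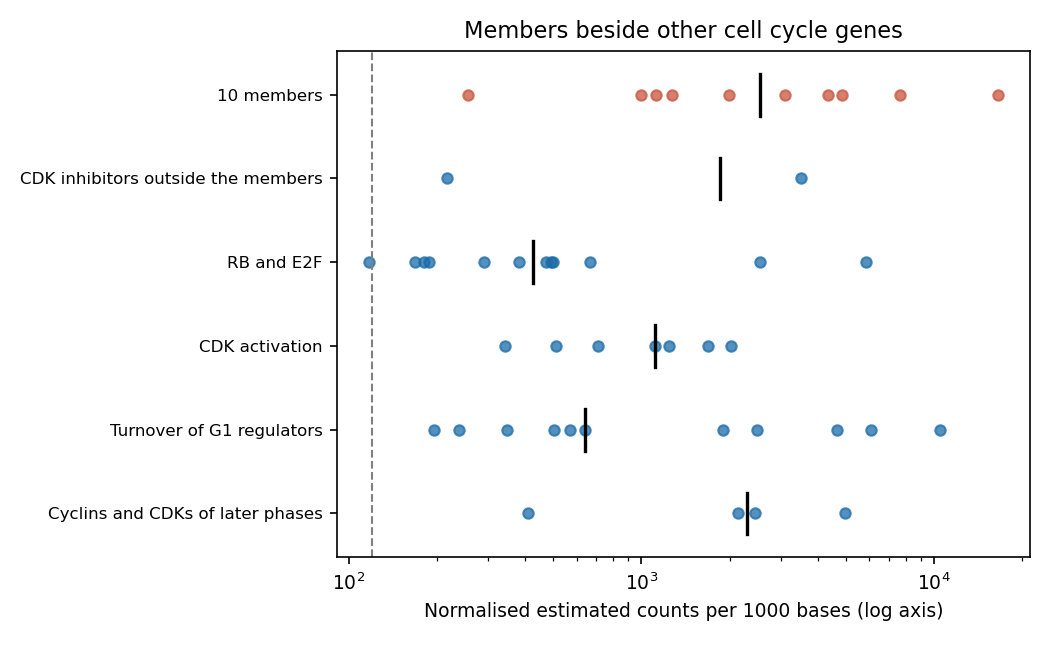
Level of each gene with a row, in normalised estimated counts per 1000 bases (log axis), for the 10 genes and the 5 pathway lists, with a line at the median of each. The 10 genes have a median of 2550, and the retinoblastoma and E2F list of 426.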

How the data were processed

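RNA-seq of polyadenylated RNA from 2 KD and 2 WT samples of NIH/3T3 cells was used. Per the methods, the authors used BBDuk to trim adapters, Kallisto to estimate counts for each transcript and Sleuth to model them, and the submitters' processing notes name bcl2fastq (2.17), HISAT2 and GRCm38. The transcriptome behind the Kallisto index is not given in the sources used here. For each transcript, the authors deposited a mean over 4 libraries on the natural log scale, taken of normalised estimated counts to which 0.5 was added. Further columns hold the variance of these logs over the libraries and the variance estimated from repeated read assignment. Other deposited columns hold the authors' own comparison of KD with WT, namely effects, standard errors, test statistics, residual variances, p-values and q-values, and a table for genes holds p-values and q-values. They were not used.

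The planned test of KD against WT needed values of single libraries and was not run. Means were put back on the scale of counts (exponential minus 0.5), divided by the spliced length from GENCODE M21 (GRCm38) and summed over the transcripts of a gene. No filter on low values was added here. An SD is the root of the deposited variance, on the log2 scale. For a gene with several transcripts, the SD is their mean weighted by level, which holds if all transcripts moved together and is otherwise an upper value. Percentiles of the SD were taken among 50 classes of transcripts of like level. Words of 31 bases, the default length of Kallisto, were counted on both strands in all GENCODE M21 transcripts. Level, spread and word counts were tested on simulated data. For level and spread, the simulation had many more libraries than the data and the same SD for all transcripts. It therefore does not show how well they are recovered from so few libraries or at low counts. The members and the gene lists were chosen with earlier results of these data known. All 10 members, *Setd2*, and the highest and the lowest gene of each pathway list are named, with those that have no row. Analyses used Python 3.11.15, numpy 2.4.6, pandas 2.3.3 and matplotlib 3.10.9.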

Additional observations from a re-analysis of the deposited data

How the results depend on the processing

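The order of the 10 genes kept all ranks with 0.5 left in the levels, with 200 bases taken off each length and with transcripts under 10 counts left out, and 5 genes changed rank with the transcript of most counts alone. Taking 200 bases off raised *Ccne1* to 1111 and *Cdk4* to 19683 per 1000 bases. The transcript of most counts alone gave *Cdk2* 671, *Cdk4* 11895 and *Cdkn1b* 917. As shares of counts, leading transcripts made up 98.4% of *Ccnd2*, 90.7% of *Ccnd3*, 88.0% of *Cdk4*, 91.2% of *Cdkn1a* and 23.0% of *Cdkn1b*. Less the variance from read assignment, SDs were 0.20 for Ccnd2-204, 0.49 for Ccnd2-202, 0 for Ccnd3-202 and Ccne2-207, 2.37 for Ccnd3-215, 0.22 for Cdkn1a-205, 0.19 for Cdkn1a-203, 0.10 for Cdkn1b-201 and 0.41 for Cdkn1b-203, and the other 15 moved by under 10%. Other values moved by less than their SD. These changes follow from how the alternatives are built. No paired analysis was possible because the columns used hold means and variances over all 4 libraries. For the same reason the comparison of KD with WT, its replicate block, leaving out each replicate, and its other pseudocount and filter were not run. With depth unknown, no counting error is given for low transcripts.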
